A study of Mus musculus with 8 samples.

Results

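The SKI/SNO/DACH family of transcriptional corepressors was examined in the hippocampus of mice in which Sumo2, a small ubiquitin-like modifier, was targeted in Emx1-Cre expressing cells. The 7 family genes are Skida1, Ski, Skil, Skor1, Skor2, Dach1 and Dach2, and they were chosen by name after Skida1 had been seen among the lower genes of this same comparison. Of the 17171 genes in the authors' deposited table, 5 are family members: Skida1, Ski, Skil, Dach1 and Dach2. Skor1 and Skor2 were not analysed here. The value of Skida1 is therefore a description, and no test of it is claimed.

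The conditional knockout group, SUMO2-cKO, had the genotype Sumo2 f/f;Emx1-Cre, and the control group had the genotype Sumo2 f/f without Cre. All mice were C57BL/6, 2 months old, and carried floxed Sumo2 alleles, and each group had 4 samples of whole hippocampus. Cre driven by Emx1 acts in the lineage of the dorsal forebrain, which gives rise to principal neurons and part of the glia, so microglia, vessels and most interneurons of the same tissue keep an intact gene. The labels do not say that samples came from separate animals, so the p-values measure a spread that may be technical. Sumo2, the targeted gene, was not lower in the group labelled SUMO2-cKO: the authors' deposited table lists 0.42 on the log2 scale of SUMO2-cKO over control (standard error 0.252, adjusted p = 0.761). The deleted part of the gene is not stated in the sources used here, so Sumo2 does not check the labels.

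SKI and SnoN, the product of Skil, bind SMAD proteins and recruit the NCoR, SIN3 and histone deacetylase machinery to genes that TGF-beta signalling would otherwise switch on. DACH proteins share a related fold and act with sine oculis homeobox and eyes absent proteins in the retinal determination network, first worked out in the fly eye. SKIDA1 carries the same SKI/DACH domain, is little studied, and was recovered with the histone methylation complex PRC2 in proteomic work on cultured cells. SnoN is itself a known target of SUMO conjugation and of the ubiquitin ligases Smurf2, Arkadia (Rnf111) and the Cdh1 (Fzr1) form of the anaphase promoting complex.

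Sequence was looked at first, because family members that share stretches of sequence could trade reads. None of the 4556 windows of 50 bases in the coding transcripts of Skida1 occurs in a transcript of another gene, and the same held for Ski (5521 windows), Skil (6858) and Dach2 (7115). In Dach1, 3 of 5216 windows (0.0575%) also occur in transcripts of 1 other gene, Mllt3. The longest run of identical bases between any pair of the 5 coding sequences was 20 bases. It was found for Skida1 with Dach1, and for Dach1 with Dach2. Both pairs are shown here with 15 bases on each side, with the identical bases in capitals, to show how short the longest identical runs are. Similarity that allows mismatches was not measured. They come from GENCODE M21 on GRCm38. The Skida1 stretch lies in exon 2 at chr2:18046335-18046384 (minus strand), and the Dach1 stretch beside it in exon 1 at chr14:98168876-98168925 (minus strand).
Skida1, exon 2: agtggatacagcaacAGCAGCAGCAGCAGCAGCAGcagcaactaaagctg
Dach1, exon 1: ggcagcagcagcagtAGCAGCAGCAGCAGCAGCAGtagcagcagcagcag
The second pair lies in exon 6 of Dach1 at chr14:97903171-97903220 (minus strand) and in exon 7 of Dach2 at chrX:113750337-113750386 (plus strand).
Dach1, exon 6: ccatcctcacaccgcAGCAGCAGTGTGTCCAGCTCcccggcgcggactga
Dach2, exon 7: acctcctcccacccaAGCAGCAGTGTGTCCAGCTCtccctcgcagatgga
The Skida1 and Dach1 run is a simple repeat of the triplet AGC, while the Dach1 and Dach2 run is a mixed stretch of coding sequence. Ski and Skil, the closest relatives by function, shared no run longer than 13 bases.

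Skida1 (ENSMUSG00000054074, chromosome 2, 18040676 to 18049051, minus strand) was the member that fell in the group labelled SUMO2-cKO. The authors' deposited table gives it a log2 fold change of SUMO2-cKO over control of -0.52, with a standard error (SE) of 0.0716 and a 95% interval of -0.66 to -0.38. On the linear scale Skida1 RNA fell by 30.3%, to 0.697 times the control level, with an interval of 0.632 to 0.768. Its adjusted p in the authors' deposited table was 4.3e-10 (Wald test with Benjamini-Hochberg adjustment), given here as the value by which the gene was picked. By p-value it held rank 13 among all genes and rank 3 among the 91 lower calls. By size it held rank 17 among the lower calls, whose median log2 fold change was -0.31. The gene is compact, 8.38 kb long, with its coding sequence of 2727 bases (909 codons) in 1 of 2 exons. In whole tissue, fewer cells that express a gene and less RNA of it per cell cannot be told apart.

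The rest of the family had values below 0 that did not pass the test. In the authors' deposited table all 5 measured members had a negative log2 fold change, against 50.1% of all genes, with a median of -0.21, or -0.13 without Skida1, against 0.00 over all genes. Genes were counted as called where the adjusted p lay under 0.05, and 1 of the 5 members was called, as lower. Among all 17171 genes, 0.530% were called lower and 0.967% higher, and 8.37% had an unadjusted p under 0.05, the share against which such counts in the gene lists are to be read. Since Skida1 was picked for its call, nothing is read from the members' calls, signs or median against those of all genes.

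**Figure D1:**
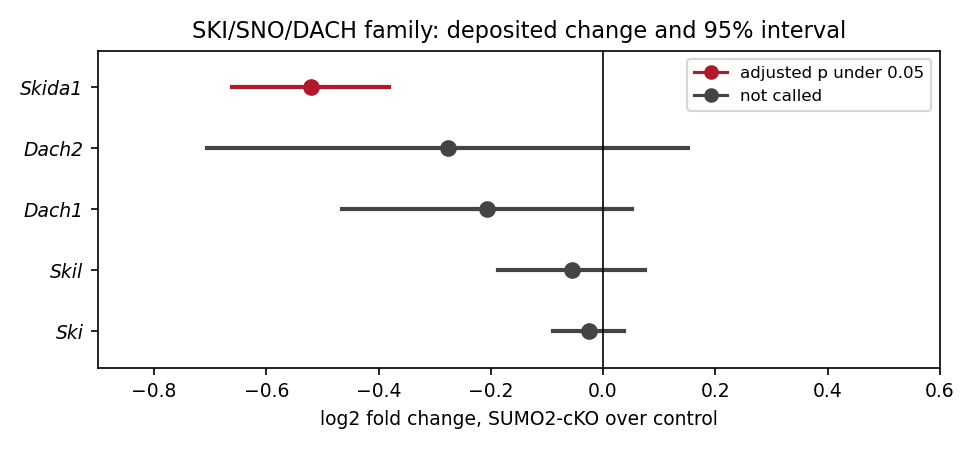
Log2 fold change of SUMO2-cKO over control (horizontal axis) for the 5 measured family members, with points at the deposited value and bars for the 95% interval made from its SE. The interval of Skida1 runs from -0.66 to -0.38 and those of Dach2, Dach1, Skil and Ski include 0.

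Ski (ENSMUSG00000029050, chromosome 4, 155154075 to 155222592), the founding corepressor of the family, was the most tightly measured member. Its change was listed in the authors' deposited table as -0.03 on the log2 scale (SE 0.0325, adjusted p = 0.9996), with a 95% interval of -0.09 to 0.04. Ski RNA stood at 0.982 times the control level with an interval of 0.940 to 1.03, so a change of the size seen in Skida1 lies outside it. Only 0.565% of all genes had a smaller SE.

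Skil (ENSMUSG00000027660, chromosome 3, 31095058 to 31122577) encodes SnoN, which holds back TGF-beta signalling and is in turn a target gene of it. On the log2 scale it stood at -0.06 in the authors' deposited table (SE 0.0668, 95% interval -0.19 to 0.07, adjusted p = 0.9996). The SE is close to that of Skida1, and at that SE a fall of 14.4% would have been enough for a call. RNA of Skil stood at 0.962 times the control level (0.879 to 1.05).

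Dach1 (ENSMUSG00000055639, chromosome 14, 97786853 to 98169765), a DNA-binding member that marks progenitors in the developing forebrain, was less tightly measured. The authors' deposited table gives -0.21 on the log2 scale (SE 0.131, 95% interval -0.46 to 0.05, adjusted p = 0.823). Its level was 0.866 times the control level, and the interval of 0.725 to 1.04 includes no change. At its SE a log2 change of 0.44 in size was needed for a call.

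Dach2 (ENSMUSG00000025592, chromosome X, 113297510 to 113836386), the paralog of Dach1, had the widest interval. In the authors' deposited table it stood at -0.28 (SE 0.219, 95% interval -0.71 to 0.15, adjusted p = 0.947), a level of 0.825 times control with an interval of 0.613 to 1.11. The value of Skida1, -0.52, lies inside that interval. A log2 change of 0.74 in size, or a fall of 40.0%, was needed for a call at this SE, so a fall like that of Skida1 was not detectable for Dach2 at this precision.

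**Figure D2:**
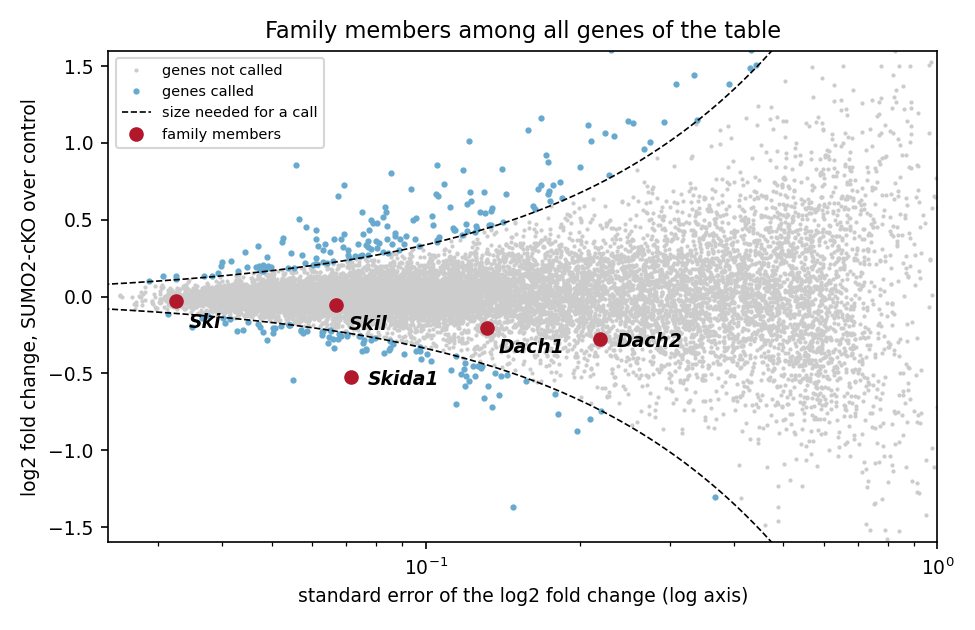
Log2 fold change of SUMO2-cKO over control (vertical axis) against its SE (horizontal log axis) for the genes of the table, 101 of which lie outside the frame. Dashed lines mark the size needed for a call, a statistic of 3.37, and Skida1 lies beyond the lower line while the other 4 members lie between the lines.

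Differences between members were taken pair by pair from the authors' deposited table, as a description with intervals that treat the errors of 2 genes as independent. Of the 10 pairs, 3 had an interval that leaves out 0, each of them with Skida1. Skida1 minus Ski was -0.50 (95% interval -0.65 to -0.34), Skida1 minus Skil was -0.47 (-0.66 to -0.27) and Skida1 minus Dach1 was -0.31 (-0.61 to -0.02). Skida1 minus Dach2 was -0.24 with an interval of -0.70 to 0.21. Dach2 minus Dach1 was -0.07 (-0.57 to 0.43) and Skil minus Ski was -0.03 (-0.18 to 0.12), so within each pair of paralogs a difference was not detectable at this precision. The choice of Skida1 for its fall favours the pairs that hold it.

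The genes beside Skida1 on chromosome 2 were read next. A930004D18Rik, a coding gene, starts 2938 bases beyond the end of Skida1 on the same strand, at chromosome 2, 18025193 to 18037737. Its log2 value in the authors' deposited table, -0.46 (SE 0.141, 95% interval -0.74 to -0.18, adjusted p = 0.0647), did not pass the test over all genes. A log2 change of 0.48 in size was needed for a call at that SE. Skida1 minus A930004D18Rik was -0.06, with an interval of -0.37 to 0.25.

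On the other side lies Mllt10, which encodes AF10, a partner of the histone methyltransferase DOT1L. Mllt10 runs on the opposite strand, and 6185 bases lie between the 2 gene starts. It stood at -0.01 in the authors' deposited table (SE 0.0608, 95% interval -0.13 to 0.11, adjusted p = 0.9996). Dnajc1, an endoplasmic reticulum cochaperone 146602 bases away, stood at 0.05 (SE 0.0745) in the authors' deposited table. No reads or values per exon were analysed here, so a link between the values of Skida1 and A930004D18Rik was not tested.

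Within 1 Mb of Skida1, 10 other genes were measured, and none was called by the authors' Wald test with Benjamini-Hochberg adjustment (2 had an unadjusted p under 0.05). Their median log2 fold change, from the authors' deposited table, was -0.01. The second of the 2 was Pip4k2a, a phosphoinositide kinase 793203 bases away, listed in the authors' deposited table at -0.20 (SE 0.0661, adjusted p = 0.106). Bmi1, a subunit of the Polycomb complex PRC1, stood at -0.08 (SE 0.0478, adjusted p = 0.749), and Nebl, an actin-binding protein gene, at 0.00 (SE 0.0483).

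**Figure D3:**
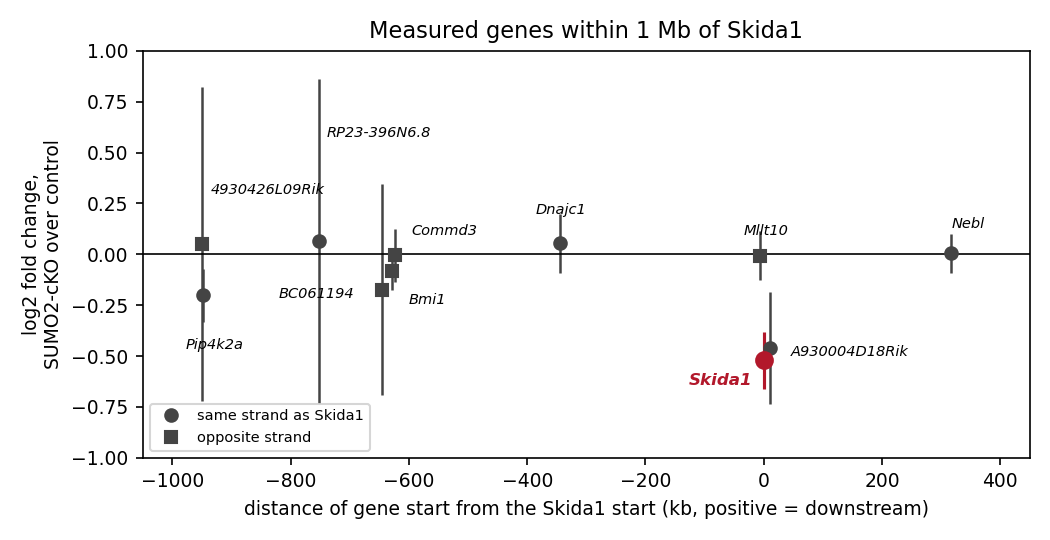
Log2 fold change of SUMO2-cKO over control with its 95% interval (vertical axis) for Skida1 and the 10 measured genes within 1 Mb, by distance of the gene start from the Skida1 start in kb (horizontal axis). The points of Skida1 at -0.52 and A930004D18Rik at -0.46 stand below those of the other genes of the region, and Mllt10 at -0.01 stands near 0. The wide intervals of BC061194 (-0.69 to 0.34), RP23-396N6.8 (-0.73 to 0.86) and 4930426L09Rik (-0.72 to 0.82) include the value of Skida1.

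Of the 100 genes measured in the 8 pathway lists, 1 was called, as lower. Among all genes, 0.530% were called lower and 0.967% higher, so nothing is read from this count. The called gene was in the list of SMAD proteins, the direct partners of SKI and SnoN. Smad3 (chromosome 9, 63646767 to 63757994), the effector of TGF-beta and activin to which SKI and SnoN bind, fell by 11.7%. Smad3 is listed at -0.18 on the log2 scale in the authors' deposited table (SE 0.0471, adjusted p = 0.0141), with a 95% interval of -0.27 to -0.09, and its call ended with Bonferroni adjustment and with a fold of at least 1.5. Of 8 measured SMAD genes, 1 was called lower, none higher, and 6 had a negative value, with a median of -0.09 in the authors' deposited table (2 with an unadjusted p under 0.05). Smad7, an inhibitory SMAD that TGF-beta induces, stood at -0.17 (SE 0.0811, adjusted p = 0.478) and Smad6, the inhibitory SMAD of BMP signalling, at 0.21. Smad2, the close relative of Smad3, stood at -0.08 and Smad4, the shared partner, at 0.01.

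Ligands and receptors of the pathway held no called gene. Of 16 measured TGF-beta and BMP ligands, 5 had a negative value and the median was 0.06 in the authors' deposited table, with 1 unadjusted p under 0.05. That gene was Tgfb2, the isoform common in neurons and glia, at -0.29 (SE 0.0937, 95% interval -0.48 to -0.11, adjusted p = 0.0869). Tgfb1 stood at 0.20 (SE 0.144) and Inha, the inhibin alpha subunit, at 0.19 (SE 0.110) in the authors' deposited table. Among 13 receptor genes, 8 were negative, with a median of -0.02 and 1 unadjusted p under 0.05. Acvr2a, an activin receptor, stood at 0.21 (SE 0.0785, adjusted p = 0.238), Bmpr2 at 0.11 (SE 0.0682) and Eng, a coreceptor of vessels, at 0.18 (SE 0.145).

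Target genes of TGF-beta and BMP signalling were split evenly, with 8 of 16 below 0, none called and a median of 0.03 in the authors' deposited table (2 with an unadjusted p under 0.05). Id3, a BMP-induced inhibitor of helix-loop-helix factors, stood at 0.24 (SE 0.0731, 95% interval 0.10 to 0.39, adjusted p = 0.0597). Id1 stood at 0.17, Id2 at 0.11 and Id4 at -0.12 in the authors' deposited table. Skil and Smad7, listed above, are also members of this group.

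Corepressor partners were close to 0. Of 14 measured genes, 8 had a negative value, the median was -0.01, and none was called in the authors' deposited table (1 with an unadjusted p under 0.05). Hdac1, a histone deacetylase, stood at 0.19 (SE 0.0891, adjusted p = 0.484), while its paralog Hdac2 stood at -0.04. Ncor1 stood at 0.02 and Sin3a at 0.00 in the authors' deposited table.

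The enzymes that attach ubiquitin or SUMO to SKI and SnoN were likewise not called. Of 12 measured genes 8 had a negative value, with a median of -0.02 and none with an unadjusted p under 0.05 in the authors' deposited table. The authors' deposited table lists Pias3, a SUMO ligase, at -0.12 (SE 0.0632, adjusted p = 0.628). Smurf2 stood at -0.07, Rnf111 at -0.02 and Fzr1 at -0.03 in the authors' deposited table.

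PRC2, the complex with which SKIDA1 was recovered, had mostly small negative values and no called subunit. Of 13 measured genes, 11 were negative, with a median of -0.04 and a range of -0.14 to 0.02 in the authors' deposited table (1 with an unadjusted p under 0.05). Aebp2, an accessory subunit, stood at -0.11 (SE 0.0415, adjusted p = 0.212), and Jarid2 at -0.08 (SE 0.0519). E130012A19Rik, now named Epop and also an accessory subunit, stood at -0.14 (SE 0.0857, adjusted p = 0.786). The catalytic subunits Ezh2 and Ezh1 stood at -0.06 and -0.01, and the core subunits Suz12 and Eed at -0.06 and -0.02, in the authors' deposited table. Every one of these values lay above the upper bound of the Skida1 interval, -0.38.

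The sine oculis homeobox, eyes absent (Eya1 to Eya4) and Pax6 genes that act with DACH proteins had a median SE of 0.203, the largest of the 8 pathway lists. Of 10 measured genes 6 had a negative value, the median was -0.05, and none was called in the authors' deposited table (1 with an unadjusted p under 0.05). Eya2, a phosphatase and coactivator, stood at 0.47 (SE 0.226, adjusted p = 0.521) and Six2 at 1.0 (SE 0.530, adjusted p = 0.635). Pax6, a factor of neural progenitors, stood at 0.15 (SE 0.0904). With such errors, differences of the size seen in Skida1 were not detectable for most of this group.

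**Figure D4:**
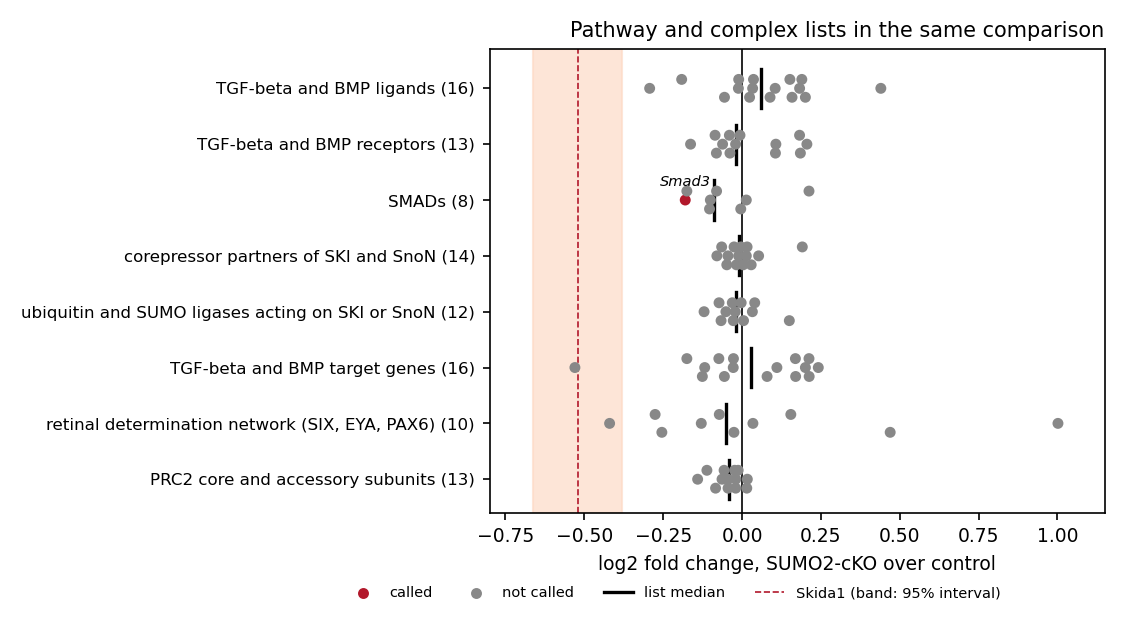
Log2 fold change of SUMO2-cKO over control (horizontal axis) for each measured gene of the 8 pathway lists, with the number measured in brackets and a black bar at each list's median. The shaded band is the 95% interval of Skida1, -0.66 to -0.38, and Smad3 at -0.18 is the called gene.

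Markers of hippocampal neurons check the labelled tissue only in part. Genes listed for granule cells, CA1, and CA2 or CA3 were measured for 6 of 6, 5 of 5 and 7 of 7, but their levels were not analysed here.

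Markers of oligodendrocytes had values of the same sign as Skida1. All 10 measured oligodendrocyte markers had a negative value in the authors' deposited table, from -0.55 to -0.39 with a median of -0.43. Of these 10, 9 had an unadjusted p under 0.05 and 2 were called lower, where 0.530% of all genes were. The called markers were Ermn, which shapes the actin cytoskeleton of myelin sheaths, at -0.55 (SE 0.121, adjusted p = 0.00122) and Mog, a myelin surface protein, at -0.45 (SE 0.129, adjusted p = 0.0385). Of 6 precursor markers 5 were negative, the median was -0.22, and Olig1, a lineage factor, was called at -0.30 (SE 0.0754, adjusted p = 0.00805). The rest of this list was not called: Olig2 stood at -0.28, Sox10 at -0.23, Gpr17 at -0.20, Pdgfra at -0.09 and Cspg4 at 0.06. The precursor markers thus did not share 1 value, and Pdgfra and Cspg4 lay nearest to 0. The calls of Ermn, Mog and Olig1 ended with Bonferroni adjustment and with a fold of at least 1.5. The range of the 10 mature markers lies within the Skida1 interval. Their part in the value of Skida1 was not tested.

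The medians of the other mature cell types, choroid plexus apart, lay nearer to 0. In the authors' deposited table, the median log2 fold change was 0.07 for 8 astrocyte markers, -0.03 for 6 microglia markers, 0.15 for 6 endothelial and mural markers and -0.08 for 8 interneuron markers, with no gene called in these groups. An unadjusted p under 0.05 was found for 2 astrocyte, 2 endothelial and mural, 2 interneuron and 0 microglia markers, against 8.37% of all genes. Choroid plexus markers had a median of -0.26 over 5 genes, all negative, but a median SE of 0.567. Of 9 markers of neural stem cells and neuroblasts, a population in which Dach1 is studied, 7 were negative and none was called, with a median of -0.05 (2 with an unadjusted p under 0.05). In the authors' deposited table Eomes, which marks intermediate progenitors, stood at -1.31 (SE 0.413, adjusted p = 0.0770) and Igfbpl1, found in young neurons, at -0.75 (SE 0.263, adjusted p = 0.164). Their part in the values of Dach1 or Skida1 was not tested.

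**Figure D5:**
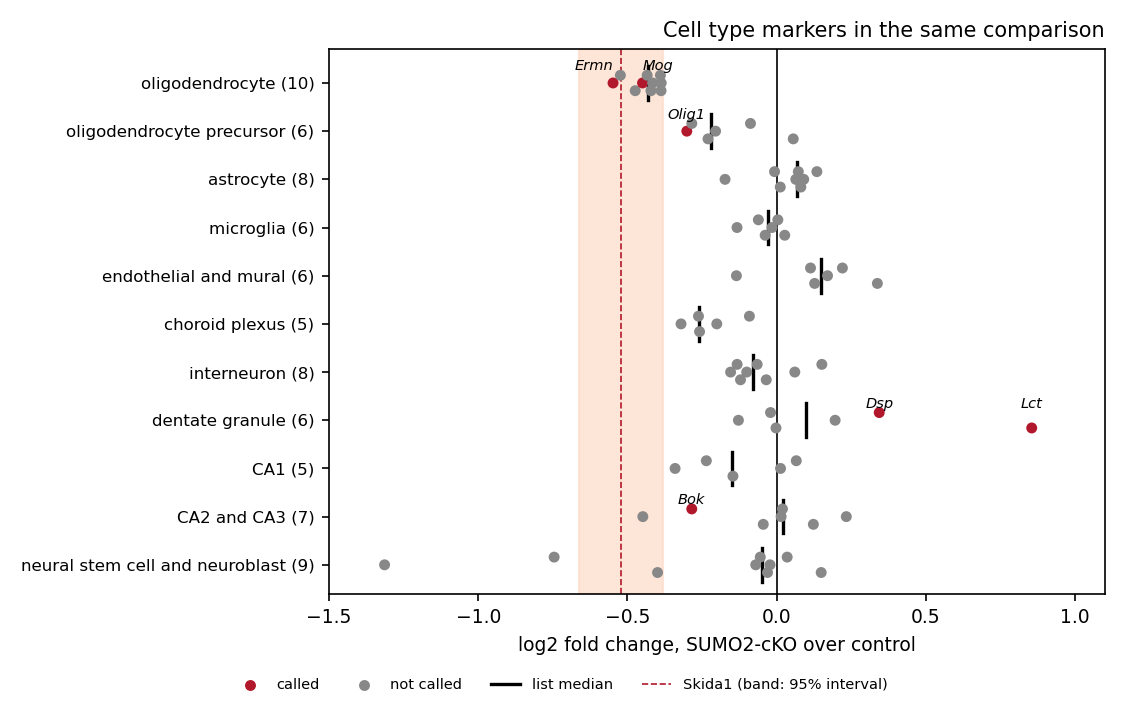
Log2 fold change of SUMO2-cKO over control (horizontal axis) for marker genes of 11 cell types, with the number measured in brackets and a black bar at each median. The shaded band is the 95% interval of Skida1, and the 10 oligodendrocyte markers, with a median of -0.43, are the group that lies inside it.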

How the data were processed

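RNA came from snap-frozen hippocampus, and libraries were made with a stranded mRNA kit, per the labels' protocols. Trim Galore, cutadapt, STAR, HTSeq and DESeq2 appear in the submitters' processing notes, and no versions, genome build or strand setting are stated in the sources used here. Per the file headers, the authors deposited for each of 17171 genes a log2 fold change of KO over WT, a Wald statistic (a score in units of the SE) and a p-value before and after FDR correction. Values in 8 further columns, whose names match no sample label, were used in no step, so values per sample and depth were not analysed here. The planned gene-level fit was replaced, as the design allowed, by a description of the authors' test.

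The log2 fold change over the deposited statistic gave the SE, and 95% intervals used a normal distribution. Recomputed p-values lay within 2.8e-15 of those deposited, and Benjamini-Hochberg adjustment across all genes within 9.6e-15. The adjustment and the intervals were run on simulated normal values drawn with these SEs, which cannot test the SEs themselves. The size needed for a call was the SE times 3.37, the statistic at the largest called p-value, 7.5e-04. Members, gene lists and markers were chosen with earlier results of these data known. Named by rule were all members, the called genes of each list (or the 3 with the smallest p-value where a list had none) and the genes within 250 kb of Skida1; others were named after their values were seen. Some genes that the rule names are not reported here. Coordinates and sequences came from GENCODE M21 (GRCm38) by gene identifier, and windows were searched on both strands of all its transcripts. Alternatives changed the threshold or the genes adjusted over. Tools were Python 3.11.15 with pandas 2.3.3, scipy 1.17.1, numpy 2.4.6 and matplotlib 3.10.9.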

Additional observations from a re-analysis of the deposited data

How the results depend on the processing

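Skida1 kept its call with an adjusted p under 0.1, with Bonferroni, and with adjustment over coding genes or over genes with an SE of at most 0.25. It lost it with a fold of at least 1.5, since its own fold is 1.44, and the count of called members was then 0 in place of 1. Skida1 was picked for its call, and the threshold of 0.1 is looser and could not remove it. The calls that Skida1 kept are therefore a description and no support for its value. The other 4 measured members were called under none of the 5 alternatives. The 257 calls of the whole table (166 higher and 91 lower) became 67 with the fold (56 higher and 11 lower) and 79 with Bonferroni (64 higher and 15 lower), by construction of a stricter threshold, and with an adjusted p under 0.1 the lower calls numbered 150. Smad3, Ermn, Mog, Olig1, Dsp and Bok lost their calls with the fold and with Bonferroni, and Lct kept its own under both. A930004D18Rik, Tgfb2, Id3 and Eomes gained one with an adjusted p under 0.1, and Id3 also with an SE of at most 0.25. No paired analysis was possible because no column used here belongs to 1 sample. For the same reason, leaving out each sample and changing the normalization, tool, filter or pseudocount were planned and not run. Precision is known only through the SE, whose median over all genes was 0.0940.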

Other observations

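The next measured genes on either side of the other members were read by position, a choice made after the table was known. Downstream of Skil, 27342 bases away on the same strand, lies Cldn11, a tight junction gene of myelin and one of the oligodendrocyte markers above. The authors' deposited table gives Cldn11 a log2 fold change of -0.47 (SE 0.160, adjusted p = 0.125), while Skil itself stood at -0.06 and Prkci, an atypical protein kinase C upstream of it, at -0.08 (SE 0.0428). In the authors' deposited table Morn1, beside Ski, stood at 0.01 (SE 0.123) and 2610002J02Rik, 27209 bases from its start, at 0.28 (SE 0.0863, adjusted p = 0.0706). Beside Dach2, Klhl4 stood at -0.32 (SE 0.104, adjusted p = 0.105) and Chm, an escort protein of Rab prenylation, at -0.06 (SE 0.0549). Upstream of Dach1, Mzt1 stood at -0.07 (SE 0.0402). None of these genes was called, and in the authors' deposited table A930004D18Rik beside Skida1 had the smallest adjusted p among them, 0.0647.

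Markers of the neuronal layers had values of both signs. Of 6 granule cell markers, 3 were negative and 3 positive, with a median of 0.1 in the authors' deposited table. Among these 6, 2 were called higher, where 0.967% of all genes were. An unadjusted p under 0.05 was found for 3 of the 6, against 8.37% of all genes. Lct, a lactase, rose in the authors' deposited table by 0.86 on the log2 scale (SE 0.105, adjusted p = 7.3e-13) and Dsp, a desmosome protein, by 0.34 (SE 0.0738, adjusted p = 6.7e-04). Prox1, the defining factor of granule cells, stood at -0.02. Of 7 markers of CA2 and CA3, 4 were positive, with a median of 0.02 and a range of -0.45 to 0.23 in the authors' deposited table. Bok, a BCL2 family member, was the called one of the 7, where 0.530% of all genes were called lower. It fell by 0.28 on the log2 scale (SE 0.0783, adjusted p = 0.0260), and 3 of the 7 had an unadjusted p under 0.05. The calls of Dsp and Bok ended with Bonferroni adjustment and with a fold of at least 1.5. None of 5 CA1 markers was called, with a median of -0.15 in the authors' deposited table and 1 unadjusted p under 0.05.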
